A study of Mus musculus with 4 samples.

Results

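The data described here are the transcript levels of 10 integrin subunit genes, listed as keratinocyte integrins. They were measured in hair follicle stem cells of mice on a high-fat diet or a normal diet. The subunits are Itga2, Itga3, Itga5, Itga8, Itga9, Itgav, Itgb1, Itgb5, Itgb6 and Itgb8. They were taken by gene symbol from a deposited table of 55401 genes, leaving out Itga6 and Itgb4, the integrin pair of the hemidesmosome. All 10 symbols matched 1 row each. The C57BL/6 mice gave their cells in anagen, when follicles grow hair. The high-fat diet group had received that diet for 4 months and had 2 libraries, and the normal diet group also had 2 (time on that diet not stated). The labels give no age or sex of the mice, no markers by which the cells were isolated, and do not say whether 2 libraries of 1 diet are 2 mice. The p-values therefore reflect differences among these 4 libraries alone, part of which may be technical.

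Integrins are surface receptors made of 1 alpha and 1 beta chain, which bind proteins of the extracellular matrix outside the cell and couple them to the actin cytoskeleton inside it. In epidermis and hair follicle they hold basal and stem cells to the basement membrane, and several of them release active TGF-beta from its latent complex. Itgb1 encodes the common beta chain, with which the products of Itga2, Itga3, Itga5, Itga8, Itga9 and Itgav can each pair. The products of Itgb5, Itgb6 and Itgb8 pair with that of Itgav.

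The beta chains differ from each other in their cytoplasmic ends, where the adaptors talin and kindlin bind at NPxY and related NxxY motifs. The last 180 bases of the coding sequence, stop codon included, are shown for the 4 beta chain genes because Itgb8 has none of these motifs there. Capitals mark the codons of in-frame NxxY motifs, of which NPxY is the form with proline (N asparagine, P proline, Y tyrosine, x any residue, read on the coding strand and in frame).
Itgb1: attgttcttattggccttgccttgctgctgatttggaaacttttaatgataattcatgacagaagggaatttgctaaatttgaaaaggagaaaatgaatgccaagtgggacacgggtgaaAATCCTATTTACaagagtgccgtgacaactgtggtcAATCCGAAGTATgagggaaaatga
Itgb5: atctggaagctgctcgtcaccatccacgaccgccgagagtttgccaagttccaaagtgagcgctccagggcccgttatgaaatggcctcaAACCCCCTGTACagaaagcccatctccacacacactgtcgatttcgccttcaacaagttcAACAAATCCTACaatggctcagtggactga
Itgb6: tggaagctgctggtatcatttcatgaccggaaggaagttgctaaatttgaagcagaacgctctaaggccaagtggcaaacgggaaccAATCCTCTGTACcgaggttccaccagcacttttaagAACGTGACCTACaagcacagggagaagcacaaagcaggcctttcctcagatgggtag
Itgb8: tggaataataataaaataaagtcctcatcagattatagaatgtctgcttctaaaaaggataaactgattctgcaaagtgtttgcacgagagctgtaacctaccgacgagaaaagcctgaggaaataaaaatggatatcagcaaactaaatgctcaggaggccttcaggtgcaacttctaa
The sequences were read 5′ to 3′ on the coding strand from the GENCODE M21 transcripts of mouse build GRCm38. Each lies in the last 2 coding exons of its gene. Without the stop codon these exon parts span chr8:128726073-128732085 on the plus strand for Itgb1 and chr16:33947798-33948749 on the plus strand for Itgb5. They span chr2:60600488-60605220 on the minus strand for Itgb6 and chr12:119163120-119163393 on the minus strand for Itgb8. Itgb1 had 2 NPxY motifs in this stretch. Itgb5 and Itgb6 each had 1 NPxY motif and 1 further NxxY motif, and Itgb8 had 0 of either. Among the coding ends of 21506 mouse genes 0.418% held an NPxY motif in frame and 5.70% an NxxY motif. Identity between the aligned stretches ranged from 43.3% for Itgb1 and Itgb5 to 54.3% for Itgb5 and Itgb6, and was 43.6% for Itgb1 and Itgb8. The stretches have a fixed length, gaps counted as differences, and unrelated sequences were not compared, so these values do not rank how related the tails are. The 6 alpha chain genes had 0 NxxY motifs in this stretch. Each alpha chain gene had 1 run of codons for the GFF part of the GFFKR motif, where the alpha tail meets the membrane, and Itga2, Itga3, Itga5 and Itgav had the whole motif. GFF occurred in 0.814% and GFFKR in 0.0604% of all coding ends of this length. The deposited values count each gene as a whole, so splice forms that change these ends were not told apart.

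Total counts were 8734246 and 8590570 in the high-fat diet libraries and 9940848 and 9366856 in the normal diet libraries. Krt5, a keratin of basal cells, had 3840 and 3785 FPKM (counts scaled by exonic length and library total) in the high-fat diet libraries and 3255 and 3342 FPKM in the normal diet libraries. The bulge stem cell markers were detected, Krt15 at 1640 and 1641 FPKM in the high-fat diet libraries and 1170 and 1571 FPKM in the normal diet libraries, and Cd34 at 9.22 and 8.67 FPKM in the high-fat diet libraries and 11.5 and 10.3 FPKM in the normal diet libraries. Among 10 basal and bulge markers edgeR called Krt14 alone, as higher (adjusted p = 0.0332), where 1.12% of all genes tested were called higher and 0.228% lower. The Krt14 call was lost without the first high-fat diet library, without either normal diet library and with limma, and DESeq2 also called Col17a1 and Lhx2. The summed CPM of these markers (counts scaled by library total and TMM factor) lay between 21638 and 23144 in high-fat diet libraries. In normal diet libraries it lay between 16214 and 18672. The sum is made up mostly of Krt5, Krt14, Krt15 and Col17a1, each higher in both high-fat diet libraries. Cd34, Sox9, Lhx2, Lgr5 and Nfatc1 were lower in both, and Tcf7l1 overlapped. Among all genes tested 44.6% were separated by diet in this way in CPM, 22.7% higher and 21.9% lower with the high-fat diet. The median log2 fold change of the 10 markers (high-fat over normal diet) was 0.04. Markers of suprabasal keratinocytes summed to between 3608 and 4490 CPM in high-fat diet libraries, against between 1092 and 2735 CPM in normal diet libraries. Of these 7 markers edgeR called 2 higher, Krt10 and Krtdap, and 1 lower, Flg, against the same 1.12% and 0.228% of all genes. Without either normal diet library or with limma 0 were called, without the first high-fat diet library Krt10 alone was called and without the second Krtdap and Flg were, and DESeq2 called Krtdap and Sbsn. Markers of other cell types were low. Fibroblast markers summed to between 118 and 125 CPM in high-fat diet libraries, against between 75.0 and 86.2 CPM in normal diet libraries. Leukocyte markers summed to between 47.1 and 50.9 CPM in high-fat diet libraries, against between 17.6 and 42.7 CPM in normal diet libraries. Markers of smooth muscle and pericytes summed to between 28.8 and 34.9 CPM in high-fat diet libraries, against 22.0 CPM in each normal diet library. Endothelial markers summed to between 20.3 and 24.1 CPM in high-fat diet libraries, against between 11.8 and 15.3 CPM in normal diet libraries. Melanocyte markers (29.3 to 36.4 CPM in high-fat diet libraries, against 28.0 to 48.0 CPM in normal diet libraries) and Schwann cell markers (7.04 to 10.2 CPM in high-fat diet libraries, against 8.14 to 8.52 CPM in normal diet libraries) overlapped. None of the markers outside keratinocytes was called with the main edgeR settings, while the fibroblast marker Thy1 was called higher without a filter on low counts, and 0 of all markers were at 0 in all 4 libraries. In bulk RNA a smaller share of cells of a type and less RNA per cell cannot be told apart, and the part of these cells in the integrin values was not tested.

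The 10 subunits differed from each other far more than the diets did. Itgb1, the common beta chain, stood highest, at a mean of 90.9 FPKM over the 4 libraries, 2.95 times that of Itga3, the next. Itga3 and Itgb5 averaged 30.8 and 27.3 FPKM, and their libraries overlapped. Itgav and Itgb6 followed at 16.1 and 14.1 FPKM and overlapped as well, as did Itgb8 at 10.6 FPKM and Itga2 at 8.86 FPKM. Itga5 stood at 2.71 FPKM, Itga8 at 0.818 FPKM and Itga9 at 0.113 FPKM. Of the 9 pairs of neighbours in this order 6 did not overlap in any library. The mean of Itgb1 was 808 times that of Itga9 and 111 times that of Itga8.

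**Figure D1:**
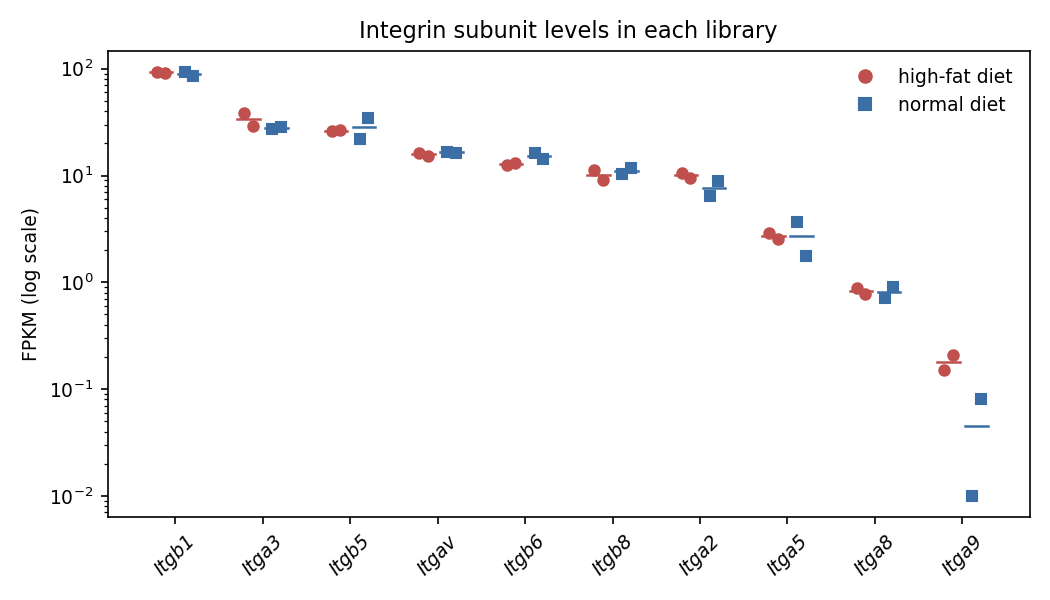
Level of each of the 10 integrin subunits in FPKM (log axis), ordered by the mean over all libraries, with circles for the 2 high-fat diet libraries, squares for the 2 normal diet libraries and a bar at each mean. Itgb1 lies near 90.9 FPKM and Itga9 near 0.113 FPKM, and the diets stay close for most subunits.

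The comparison of the diets asked which of these receptors differed in transcript level after 4 months of high-fat feeding. None of the 10 subunits passed the test in either direction (edgeR quasi-likelihood test, adjusted p under 0.05 over the 14479 genes that passed the filter on low counts). Their adjusted p ranged from 0.281 to 0.977. Among all genes tested 1.35% were called, 162 as higher (1.12%) and 33 as lower (0.228%). An unadjusted p under 0.05 was found for 2 of the 10, Itga2 and Itga3, and for 13.3% of all genes tested. The split of calls depended on scaling. Of the called genes 83.1% were higher with TMM scaling, 67.0% with library totals alone and 96.7% with libraries scaled to equal sums of TPM. DESeq2 called 275 higher and 119 lower genes, and 0 of the 9 subunits to which it gave an adjusted p (all but Itga9).

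All 10 subunits passed the filter, Itga9 through the high-fat diet libraries alone. Their median log2 fold change (high-fat over normal diet) was 0.11, or 0.09 over the 9 subunits without Itga9, beside 0.0018 over all genes tested. Log2 fold changes were positive for 7 and negative for 3 subunits, and Itga5 and Itgav turned negative with library totals or with equal sums of TPM, which left 5 and 5. The CPM of the diets did not overlap for 5 of the 10 subunits, a separation found in 44.6% of all genes tested. Both high-fat diet libraries lay above both normal diet libraries for 4 of them (22.7% of all genes tested) and below for 1 (21.9%). Itga9 is among the 7 positive subunits and among the 4 that lay above. Its direction was favoured by the filter, which it passed through the high-fat diet libraries alone.

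Itgb1 (chromosome 8, positions 128685654 to 128733200, plus strand, GRCm38) had 93.3 and 91.9 FPKM in the high-fat diet libraries and 92.7 and 85.9 FPKM in the normal diet libraries. The 2 groups overlapped in FPKM, and the second normal diet library was the lowest of the 4. After TMM scaling the values were 395 and 384 CPM in high-fat diet libraries, against 364 and 343 CPM in normal diet libraries, without overlap. Its log2 fold change was 0.14 ± 0.12 (SE, n = 2 per diet; edgeR adjusted p = 0.673). Its 95% interval ran from a 0.924-fold to a 1.31-fold level. Over the 4 libraries the genes whose centred log2 CPM lay closest to that of Itgb1, among 10908 named genes with a mean of at least 1 FPKM, were Stx17, Fam160b1 and Med13l. Their root mean square distances were 0.0082, 0.012 and 0.013 log2 units, against a median of 0.221 over the genes searched. As the smallest distances of that search, they lay under the median by selection.

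Among the alpha chains that read collagen and laminin, Itga2 and Itga3 had the smallest adjusted p of the 10 subunits. Itga2, the collagen-binding chain (chromosome 13, positions 114833081 to 114932100, minus strand), had 10.6 and 9.48 FPKM in the high-fat diet libraries and 6.42 and 8.89 FPKM in the normal diet libraries. Both high-fat diet libraries lay above both normal diet libraries, and the first normal diet library stood lowest. For Itga2 the log2 fold change was 0.48 ± 0.19 (SE, n = 2; edgeR adjusted p = 0.281), with a 95% interval from 1.05-fold to 1.85-fold. Leaving out the first normal diet library gave 0.26, and leaving out the second gave 0.74. Itga3, the chain that binds the laminin of epidermal basement membrane (chromosome 11, positions 95044474 to 95076801, minus strand), had 38.4 and 29.3 FPKM in the high-fat diet libraries and 27.2 and 28.3 FPKM in the normal diet libraries. Here the first high-fat diet library stood apart, and the second lay just above the normal diet libraries. The log2 fold change was 0.37 ± 0.15 (SE, n = 2; edgeR adjusted p = 0.302), and it was 0.16 without the first high-fat diet library. Beside these, the hemidesmosome genes Itga6 and Itgb4 had log2 fold changes of 0.45 ± 0.16 and 0.41 ± 0.14 (SE, n = 2), with edgeR adjusted p of 0.235 and 0.231, so that neither was called. Itga6 had 57.9 and 48.9 FPKM with the high-fat diet and 35.3 and 47.7 FPKM with the normal diet, so its first normal diet library was the lowest, as for Itga2.

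Itga5, Itga8 and Itga9 were the least abundant of the subunits, and the ligands of their products include fibronectin, nephronectin and tenascin. Itga5, the fibronectin receptor chain that keratinocytes use in wounds (chromosome 15, positions 103344286 to 103366763, minus strand), had 2.88 and 2.55 FPKM in the high-fat diet libraries and 3.65 and 1.77 FPKM in the normal diet libraries. The normal diet libraries enclosed both high-fat diet libraries. The log2 fold change was 0.09 ± 0.35 (SE, n = 2; edgeR adjusted p = 0.955), and leaving out the first or the second normal diet library gave 0.69 or -0.33. Itga8, whose product binds nephronectin (chromosome 2, positions 12106632 to 12301922, minus strand), had 57 and 49 counts in the high-fat diet libraries and 52 and 62 counts in the normal diet libraries, which overlapped. Its log2 fold change of 0.13 ± 0.43 (SE, n = 2; edgeR adjusted p = 0.939) had a 95% interval from 0.574-fold to 2.09-fold.

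Itga9, whose product binds tenascin-C and cellular fibronectin (chromosome 9, positions 118606690 to 118901003, plus strand), had 10 and 14 counts in the high-fat diet libraries and 1 and 6 counts in the normal diet libraries. The first normal diet library lay under the floor of 3 counts, and the groups did not overlap. The log2 fold change was 1.96 ± 1.10 (SE, n = 2; edgeR adjusted p = 0.485), and it was 1.17 when the first normal diet library was left out and 3.70 when the second was. The pseudogene Gm10157 lies within Itga9 on the other strand, outside its exons, and had 72 and 103 counts with the high-fat diet and 157 and 103 counts with the normal diet. The annotation has 2 genes on the opposite strand that share exon positions with a subunit, E030013I19Rik in Itga8 and Gm13684 in Itgav, with at most 10 counts in any library.

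The Itgav chain and its partners bind vitronectin and latent TGF-beta. Itgav (chromosome 2, positions 83724397 to 83806916, plus strand) had 16.3 and 15.2 FPKM in the high-fat diet libraries and 16.6 and 16.4 FPKM in the normal diet libraries. Both high-fat diet values lay below both normal diet values in FPKM, and the groups overlapped in CPM. The log2 fold change of 0.02 ± 0.12 (SE, n = 2; edgeR adjusted p = 0.977) was negative with library totals or equal sums of TPM and had a 95% interval from 0.839-fold to 1.23-fold. Itgb5, a vitronectin receptor chain (chromosome 16, positions 33829665 to 33949338, plus strand), had 25.8 and 26.5 FPKM in the high-fat diet libraries and 22.2 and 34.6 FPKM in the normal diet libraries. The normal diet libraries again lay on either side of the high-fat diet libraries. Its log2 fold change of -0.03 ± 0.19 (SE, n = 2; edgeR adjusted p = 0.976) moved to -0.32 when the first normal diet library was left out and to 0.33 when the second was.

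Itgb6, a chain made almost only by epithelia that activates latent TGF-beta (chromosome 2, positions 60598292 to 60722643, minus strand), had 12.5 and 13.2 FPKM in the high-fat diet libraries and 16.4 and 14.3 FPKM in the normal diet libraries. It was the only subunit whose high-fat diet libraries both lay below the normal diet libraries in FPKM and in CPM. The log2 fold change of -0.17 ± 0.14 (SE, n = 2; edgeR adjusted p = 0.671) did not pass the test, with a 95% interval from 0.721-fold to 1.10-fold. Itgb8, another activator of latent TGF-beta and the chain with 0 NxxY motifs in the sequence above (chromosome 12, positions 119158022 to 119238802, minus strand), had 11.3 and 9.13 FPKM in the high-fat diet libraries and 10.4 and 11.7 FPKM in the normal diet libraries. These groups overlapped, with a log2 fold change of -0.03 ± 0.15 (SE, n = 2; edgeR adjusted p = 0.969) that was positive when either second library was left out (0.12 for the high-fat diet one, 0.06 for the normal diet one).

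**Figure D2:**
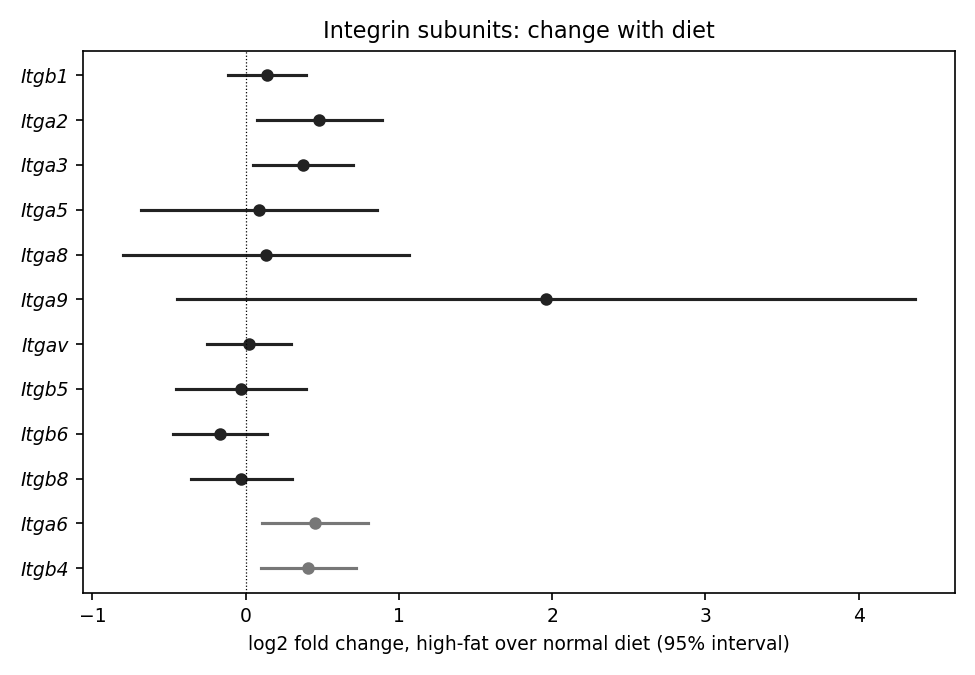
Log2 fold change of each integrin subunit with its 95% interval, high-fat over normal diet (edgeR, n = 2 per diet), with the hemidesmosome pair Itga6 and Itgb4 in grey. The values run from -0.17 for Itgb6 to 1.96 for Itga9, whose interval is the widest, and 0 of the genes shown passed the test.

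The make-up of the possible pairs was described by sums of FPKM, which say nothing of receptors at the cell surface. The 6 alpha chains summed to 69.3 and 57.5 FPKM in the high-fat diet libraries and to 54.6 and 56.3 FPKM in the normal diet libraries. Divided by Itgb1, this was 0.742 and 0.626 with the high-fat diet and 0.589 and 0.656 with the normal diet. In each library transcripts of the common beta chain were thus more abundant than those of these 6 alpha chains together. The sum leaves out Itga6, which had 57.9 and 48.9 FPKM with the high-fat diet and 35.3 and 47.7 FPKM with the normal diet. The comparison with Itgb1 therefore does not cover all alpha chains in these cells. Itga3 made up 55.4% and 51.0% of the alpha sum with the high-fat diet and 49.9% and 50.2% with the normal diet. The share of Itgav was 23.5% and 26.4% with the high-fat diet, below the 30.4% and 29.1% with the normal diet. A share also depends on the other chains in the sum, and Itgav itself had a log2 fold change of 0.02. The shares of Itga3 and Itga9 were higher in both high-fat diet libraries. Itga2 made up between 11.8% and 16.5%, and Itga9 at most 0.365%.

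Among the partners of Itgav outside Itgb1, Itgb5 gave 52.1% and 54.3% of the summed FPKM with the high-fat diet and 45.3% and 57.1% with the normal diet. The share of Itgb6 was 25.2% and 27.0% with the high-fat diet and 33.4% and 23.6% with the normal diet, and that of Itgb8 was 22.7% and 18.7% with the high-fat diet and 21.3% and 19.3% with the normal diet. All 3 shares overlapped between the diets. The 3 beta chains summed to 3.04 and 3.22 times the level of Itgav with the high-fat diet and to 2.95 and 3.69 times with the normal diet. These shares were compared by their library values alone, with no test.

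**Figure D3:**
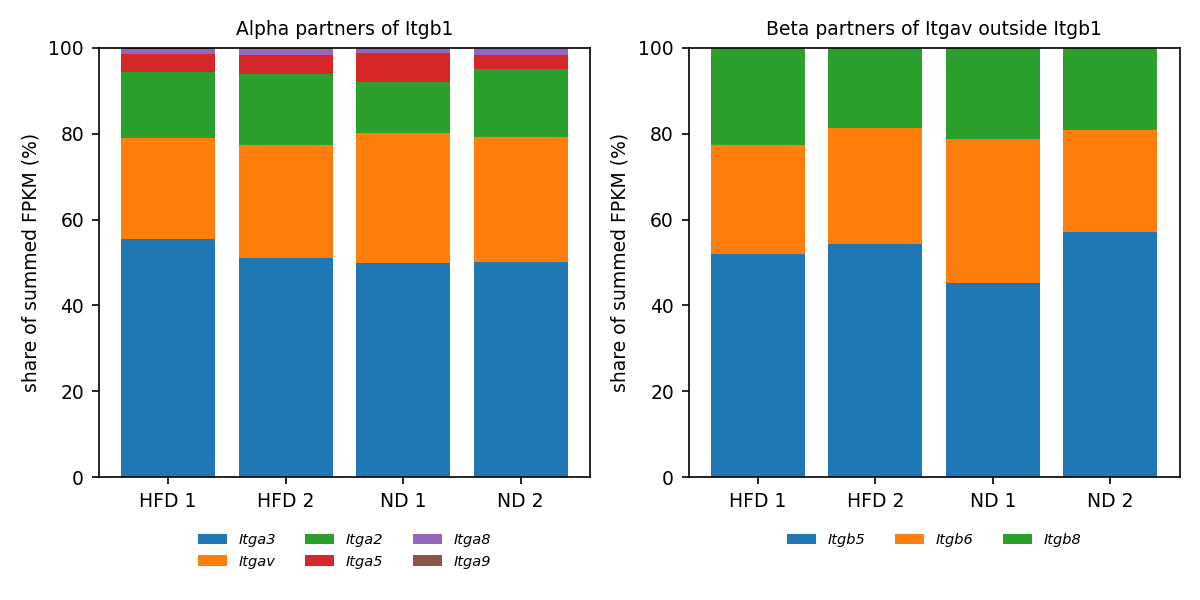
Left, share of each alpha chain in the summed FPKM of the 6 listed alpha partners of Itgb1, which leave out Itga6. Right, share of each beta chain in the summed FPKM of Itgb5, Itgb6 and Itgb8, with one bar per library in both. Itga3 is the largest alpha share in each library, between 49.9% and 55.4%. In both high-fat diet libraries the Itga3 and Itga9 shares are higher and the Itgav share is lower, with no test.

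Of 28 matrix ligands of integrins 25 were tested, 1 was higher and 0 were lower (edgeR), beside 1.12% and 0.228% of all genes tested. The median log2 fold change was 0.08, beside 0.0018 over all genes tested. The gene that rose was Tnc, which encodes tenascin-C, a ligand of the Itga9 and Itgav receptors. Tnc had 27.6 and 24.5 FPKM in the high-fat diet libraries and 17.5 and 15.2 FPKM in the normal diet libraries. All high-fat diet values lay above all normal diet values, and the log2 fold change was 0.76 ± 0.14 (SE, n = 2; edgeR adjusted p = 0.0242). The call was lost without any 1 library, with an edgeR adjusted p of 0.224 and 0.0586 without the first and second high-fat diet library and of 0.464 and 0.184 without the first and second normal diet library. It was also lost with equal sums of TPM (adjusted p = 0.177) and with limma on log2(FPKM + 1) (adjusted p = 0.181), and over all alternatives the adjusted p lay between 4.1e-05 and 0.464.

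Egfl6, a matrix protein of the follicle that integrins bind, had 12.9 and 12.4 FPKM in the high-fat diet libraries and 22.8 and 21.2 FPKM in the normal diet libraries. Each high-fat diet library was lower, but the log2 fold change of -0.71 ± 0.17 (SE, n = 2) missed the threshold (edgeR adjusted p = 0.0689). Egfl6 passed with DESeq2 (adjusted p = 0.0351), and with edgeR on library totals (adjusted p = 0.0451) or without a filter (adjusted p = 0.0163). With equal sums of TPM (edgeR adjusted p = 0.168) or limma on log2(FPKM + 1) (adjusted p = 0.145) it did not pass. Over all alternatives its adjusted p lay between 0.0163 and 0.464. Npnt encodes nephronectin, the ligand of the Itga8 receptor that bulge stem cells lay down where the arrector pili muscle attaches. It had 19.4 and 16.7 FPKM in the high-fat diet libraries and 20.2 and 29.7 FPKM in the normal diet libraries, with a log2 fold change of -0.38 ± 0.19 (SE, n = 2; edgeR adjusted p = 0.409). Fn1, which encodes fibronectin, had 4.31 and 3.27 FPKM in the high-fat diet libraries and 4.33 and 3.52 FPKM in the normal diet libraries, which overlapped. Vtn, which encodes vitronectin, was near the floor, with 16 and 7 counts in the high-fat diet libraries and 17 and 1 counts in the normal diet libraries.

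Of 9 genes listed for latent TGF-beta (its ligands and the proteins that hold or tether them), 8 were tested and 0 were called by edgeR. Of the 8, 3 had an unadjusted p under 0.05, beside 13.3% of all genes tested (edgeR). The median log2 fold change of the 8 was 0.0042. DESeq2 called 1, Tgfb3, with an adjusted p of 0.0265, in a range over all alternatives from 0.0132 to 0.584. Tgfb3 had 35.8 and 31.7 FPKM in the high-fat diet libraries and 55.9 and 48.3 FPKM in the normal diet libraries, with a log2 fold change of -0.54 ± 0.14 (SE, n = 2; edgeR adjusted p = 0.0948). Ltbp1, a protein that tethers latent TGF-beta to the matrix, had 3.92 and 5.31 FPKM in the high-fat diet libraries and 11.1 and 5.96 FPKM in the normal diet libraries (edgeR adjusted p = 0.190). Its log2 fold change of -0.79 ± 0.25 (SE, n = 2) was -0.29 without the first normal diet library. The ligand Tgfb1, which binds Itgb6 and Itgb8 receptors in its latent form, had 10.1 and 9.12 FPKM with the high-fat diet and 9.80 and 11.9 FPKM with the normal diet. Tgfb2 had 2.63 and 3.80 FPKM with the high-fat diet and 2.03 and 1.97 FPKM with the normal diet, without passing the test (edgeR adjusted p = 0.262).

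**Figure D4:**
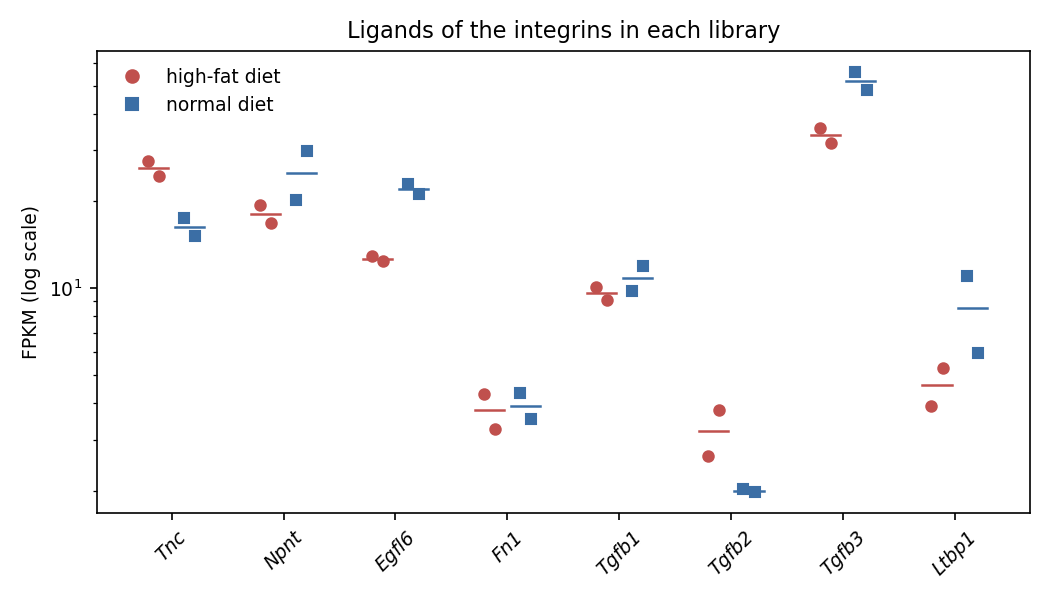
Level in FPKM (log axis) of integrin ligands and latent TGF-beta genes, with circles for the 2 high-fat diet libraries, squares for the 2 normal diet libraries and a bar at each mean. Tnc lies higher with the high-fat diet (27.6 and 24.5 FPKM, against 17.5 and 15.2 FPKM), and Egfl6 and Tgfb3 lie lower without passing the test.

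Inside the cell, integrin tails bind adaptors that link them to actin. Of 31 adaptor genes, such as those of talin, kindlin and vinculin, 28 were tested and 0 were called by edgeR or DESeq2, with 2 of the 28 at an unadjusted p under 0.05, beside 13.3% of all genes tested (edgeR). Their log2 fold changes lay between -0.38 and 0.63, with a median of 0.02. The smallest p were those of Ptk2b, a kinase related to focal adhesion kinase, with a log2 fold change of 0.63 ± 0.24 (SE, n = 2; edgeR adjusted p = 0.279), and of Tns2, a tensin, with -0.38 ± 0.15 (SE, n = 2; adjusted p = 0.297). Of 17 genes for inhibitors, tetraspanins and trafficking proteins of integrins 16 were tested and 0 were called by edgeR or DESeq2, with 1 of the 16 at an unadjusted p under 0.05, beside the same 13.3% (edgeR; median log2 fold change -0.0066). That gene was Sharpin, an inhibitor of integrin activation, with 4.59 and 5.19 FPKM in the high-fat diet libraries and 2.87 and 2.94 FPKM in the normal diet libraries (log2 fold change 0.84 ± 0.27, SE, n = 2; edgeR adjusted p = 0.196). Cd47, a partner protein of integrins, had the next smallest p, with a log2 fold change of 0.30 ± 0.16 (SE, n = 2; adjusted p = 0.453).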

How the data were processed

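RNA-seq was deposited for 2 high-fat diet and 2 normal diet libraries, grouped by diet as the labels give it. The labels' protocols name the RNeasy Mini Kit for total RNA. Per the submitters' processing notes, HISAT2 2.0.1, cutadapt 1.9.1 and bcl2fastq 2.17.1.14 are named, with no role stated. For the counting program, strand setting, annotation and build, the sources used here give no entry. The authors deposited raw counts and FPKM per gene and library, and all 221604 deposited FPKM equalled count over exonic size and column total within 0.0051. Of 55401 identifiers 55141 occur in GENCODE M21 (GRCm38), 99.4% of them at the same position, the 10 subunits included.

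Counts were tested in R 4.3.3 with the edgeR 4.0.16 quasi-likelihood test, TMM scaling and the default filter by diet (a CPM worth about 10 counts in 2 libraries, 15 counts in total), with Benjamini-Hochberg adjustment over 14479 genes and a call threshold of 0.05 on the adjusted p. Standard errors are the log2 fold change over the square root of F, and 95% intervals use the matching t quantile. The design had no replicate term. Fits were tested on simulated data. FPKM describe levels between genes. These intervals include the spread between libraries, while the floor of 3 counts covers counting error only. The members, lists and named genes were chosen with earlier results of these data known. Named genes are all subunits, called genes of each list or otherwise its 2 smallest p, and 7 genes listed as ligands. Alternatives were DESeq2 1.42.0, limma 3.58.1, other scalings, filters, pseudocounts (1 and 0.1) and thresholds, a block by replicate number, and the fit without each library in turn. Stretches of coding sequence were aligned with Biopython 1.88.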

Additional observations from a re-analysis of the deposited data

How the results depend on the processing

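Under each of the 14 alternatives 0 of the subunits tested were called in either direction. These were all 10, except 8 with the mean FPKM filter (without Itga8 and Itga9) and 9 with an adjusted p from DESeq2 (without Itga9). Their median log2 fold change of 0.11 lay between 0.0066 and 0.21, both reached by leaving out 1 library. Of 138 values of single subunits 124 kept their direction, and 14, all from subunits not called, did not. The 138 include the 10 values at an adjusted p under 0.1, which come from the main fit and could not change direction. Itga5 was -0.0016 with library totals and -0.018 with equal sums of TPM, and ranged from -0.33 to 0.69 over the libraries left out. Itgav was -0.067 with library totals, -0.054 with equal sums of TPM, -0.064 with limma on log2(FPKM + 1) and -0.068 with log2(FPKM + 0.1), and ranged from -0.041 to 0.078 over the libraries left out. Over those, Itga8 ranged from -0.034 to 0.32, Itgb5 from -0.32 to 0.33 and Itgb8 from -0.20 to 0.12. With the replicate number as a block Itgb5 was 0.0030. Among ligands, Fn1 was -0.051, -0.050, -0.044 and -0.055 with library totals, equal TPM sums and both limma settings, and ranged from -0.18 to 0.23 over the libraries left out, Vtn from -0.27 to 3.55 and Tgfb1 from -0.24 to 0.067. The cause was not tested.

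Over all genes, calls varied more. The 162 higher and 33 lower genes became 408 and 225 without a filter, 275 and 119 with DESeq2, 280 and 101 at an adjusted p under 0.1, and 2 and 0 with either limma setting. Equal sums of TPM gave 88 and 3, library totals 65 lower and a mean FPKM filter of 1 gave 55 lower genes. Leaving out 1 library gave 0 to 81 higher and 0 to 2 lower genes, with the remaining library of that diet taken to vary as the other diet's do; without the first normal diet library 0 were called, with 1488 at an unadjusted p under 0.05. The labels number the libraries alike in both diets, but same-numbered libraries did not deviate together (r = -0.043 across 10977 genes, which are not independent replicates). Pairing libraries by number (a replicate block) gave 308 higher and 111 lower genes and 0 subunits, and it added Egfl6, Thbs1 and Ltbp1 to the ligand and latent TGF-beta calls and Thy1 to the fibroblast calls. Without a filter on low counts Itga6, Egfl6, Thbs1, Tgfb3 and Ltbp1 were also called. Among keratinocyte markers, dropping the filter added Krt5, Krt15, Col17a1, Krt1, Ivl and Sbsn as higher and Lhx2 as lower. The replicate block added Krt1 and Ivl as higher. Library totals added Egfl6 and Lhx2 as lower. The threshold of 0.1 added Sbsn as higher and Egfl6, Tgfb3 and Lhx2 as lower. With equal sums of TPM the Krtdap call was lost. The order of subunit levels kept 6 separate neighbours in CPM per kilobase. Depth sets the counting error of low genes, and Itga9 rested on 1 to 14 counts in a library.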

Other observations

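Integrin genes of other cell types were low. Of 15 such genes 8 were tested and 0 were called by edgeR or DESeq2, beside 1.35% of all genes tested (edgeR). Of the 8, 0 had an unadjusted p under 0.05, beside 13.3% of all genes tested (edgeR). Itga7, a laminin receptor chain of muscle, had 39 and 26 counts in the high-fat diet libraries and 6 and 18 counts in the normal diet libraries (edgeR adjusted p = 0.383). Itga1, a collagen receptor chain, had 1.56 and 0.90 FPKM with the high-fat diet and 0.87 and 0.95 FPKM with the normal diet. In each library Itga1 lay above Itga8 and Itga9, which are listed among the keratinocyte subunits. Itgae, the chain of epidermal T cells, had 17 and 2 counts with the high-fat diet and 0 and 53 counts with the normal diet, and was named after its values were seen. The leukocyte genes Itgam and Itgad were at 0 in all 4 libraries.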
